A study of Homo sapiens with 10 samples.

Results

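LoVo cells kept without serum for 96 h in the presence of ADMA were compared with LoVo cells grown in medium with serum, to describe which genes stayed apart from growing cells when ADMA was present. The comparison takes 7 of the 10 arrays of the series, chosen by their labels: 4 of ADMA-treated cells and 3 of control cells. All genes with a probe set of their own were considered, 19775 in number, and the 12344 with a mean signal of at least 76.2 were tested. LoVo is an established cell line from a human colorectal adenocarcinoma. Asymmetric dimethylarginine (ADMA) is released as a modified form of arginine when methylated proteins are broken down. Control cells were in 10% serum with no ADMA, serum-starved cells were in medium without serum (0%) and without ADMA, and ADMA-treated cells were in medium without serum and with 10 μM ADMA throughout. All 3 groups come from 1 cell line, and no array of cells with both serum and ADMA was analysed here. The ADMA-treated cells therefore differ from control cells both in serum and in ADMA, and the 3 arrays of serum-starved cells are given beside the comparison where the 2 differences need to be set apart.

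Serum supplies growth factors, lipids and hormones to cultured cells. Without it, cells that depend on these signals leave the cell cycle, make fewer ribosomes and switch on the synthesis of their own sterols. Colonic epithelial cells that stop dividing can take on features of the differentiated surface epithelium, such as keratins, mucins, fatty acid-binding proteins and carcinoembryonic antigen family members. ADMA competes with arginine at the nitric oxide synthases and is degraded by the dimethylarginine dimethylaminohydrolases.

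Each array gave 1 signal per probe set, which the authors had scaled so that the trimmed mean was 500.1 on each of the 10 arrays. Values below are log2 signals, differences are differences of log2 signals, and a gene is said to have risen, fallen or changed where limma's adjusted p was under 0.01 and the fold at least 1.2. The medians of the arrays were unequal, with 60.6 to 73.1 for control, 87.4 to 90.6 for serum-starved and 91.8 to 98.1 for ADMA-treated cells. The 28S ribosomal RNA control (5′ probe set) gave 501.4 to 633.6 in control cells and 795.4 to 1052 in ADMA-treated cells, and for ACTB the ratio of its 3′ to its 5′ control probe set was 1.01 to 1.08 and 1.02 to 1.05. Serum-starved cells stood furthest apart in both, with a 28S signal of 1345 to 2014 and an ACTB ratio of 1.13 to 1.23. The part of the median signal and of the 28S signal in the results was not tested. Of 10 colon epithelial markers all 10 passed the filter on low signal, with summed signals of 90000 to 90630 on the control arrays and 152200 to 173200 on the ADMA arrays. The labels call the arrays of a group biological replicates, and 3 or 4 arrays per group limit the precision of every value, with a median standard error of 0.10.

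In ADMA-treated cells 3284 genes were higher than in control cells, which is 26.6% of the genes tested, and 2859 genes were lower, which is 23.2%. At a fold of at least 2 there were 1133 higher and 543 lower genes, at a fold of at least 4 there were 211 and 30, and at a fold of at least 8 there were 51 and 2. On the signals as deposited large differences were thus mostly rises, and these fold steps were not counted under another scaling or filter. The filter on low signal took the mean over all 10 arrays, most of them without serum. A gene dim in control cells could thus pass through the arrays where it was bright, which may favour rises. With the filter at the 75th percentile 2339 genes were higher and 2495 lower of 7975, and with no filter 3309 and 2798 of 19775. Serum-starved cells without ADMA had 3738 genes higher than control cells (30.3%) and 3372 lower (27.3%), and these counts share the control arrays with the ones above. The direct comparison of ADMA-treated with serum-starved cells gave 1935 higher genes (15.7%) and 1704 lower genes (13.8%). The median difference over all tested genes was 0.07 for ADMA-treated minus control cells. Centring each array on its median lowers every difference by 0.51, so that 1209 genes were higher (9.79%) and 6101 lower (49.4%). Scaling the arrays to their hybridization controls, a choice made after seeing the data, gave 2078 higher (16.8%) and 4263 lower genes (34.5%), and quantile normalization gave 2864 and 3051. For groups of genes whose balance of rises and falls moved with the scaling, the counts with arrays centred on their medians are given as well, higher before lower, and each count is to be read against the shares of all genes under the same scaling.

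**Figure D1:**
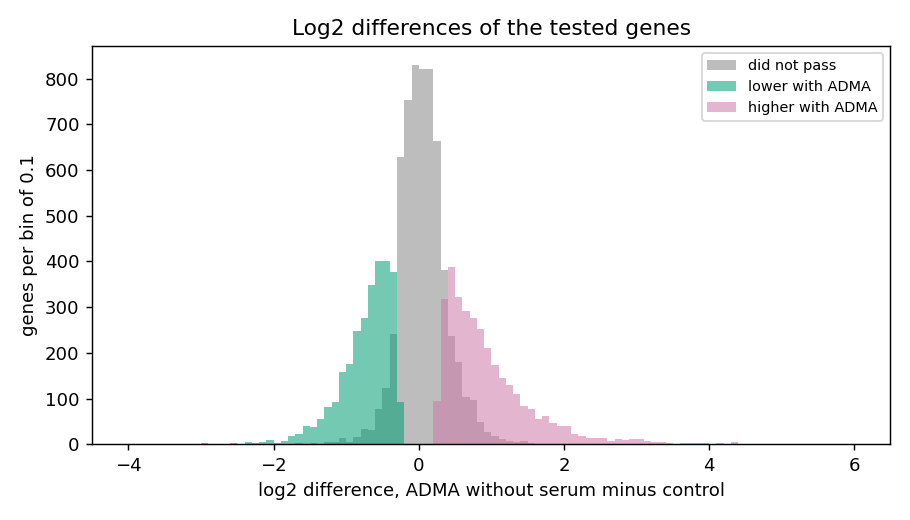
Log2 difference of ADMA-treated minus control cells (horizontal) against the number of genes per bin of 0.1 (vertical) for the 12344 genes tested, in pink where a gene was called higher, in green where lower and in grey otherwise. The 3284 higher genes reach further from 0, up to 5.59, than the 2859 lower genes, which end at -3.35.

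The largest rise belonged to FABP1, which binds fatty acids in liver and gut cells. FABP1 had log2 signals of 7.35, 7.48 and 7.11 on the control arrays and of 12.81, 12.86, 12.91 and 13.03 on the ADMA arrays. The groups lay far apart, by 5.59 (standard error 0.09, adjusted p = 1.51e-14), a fold of 48.1. Serum-starved cells had 8.77, 8.70 and 8.89, nearer to the control arrays, and the difference of ADMA-treated from serum-starved cells was 4.12. CAPN8, a calpain protease of the gastrointestinal tract, had 6.22, 5.78 and 6.14 in control cells and 11.45, 11.45, 11.70 and 11.43 in ADMA-treated cells. It rose by 5.46 (standard error 0.11, adjusted p = 5.85e-14), with serum-starved arrays at 11.27, 11.27 and 11.34, and the difference from serum-starved cells of 0.21 did not pass. CYP3A5, an oxidase of the cytochrome P450 family that clears drugs and steroids, went from 7.69, 7.50 and 7.45 to 11.88, 11.92, 11.86 and 11.78 and rose by 4.31 (standard error 0.08). MALAT1, an abundant long non-coding RNA of the nucleus, went from 7.78, 7.88 and 7.91 to 12.16, 12.17, 12.06 and 12.07 and rose by 4.26 (standard error 0.06). Both lay slightly below the level in serum-starved cells, by 0.35 and 0.71. GNE, the enzyme that starts sialic acid synthesis, had 6.93, 7.02 and 6.86 in control cells and 10.74, 10.76, 11.07 and 11.12 with ADMA. Its rise of 3.99 (standard error 0.11) placed the ADMA arrays above the serum-starved arrays as well, by 1.73. The antisense RNA RUSC1-AS1 rose by 4.30 (standard error 0.12).

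Some of the largest rises started from signals at background. TFPI, the inhibitor of the tissue factor pathway of blood clotting, had 5.07, 4.43 and 4.67 on the control arrays, all under the background level of the array, and 9.07, 8.80, 8.82 and 8.80 on the ADMA arrays. It was at least 9.93-fold higher with ADMA, taking the control arrays at the background level. On the same footing the chemokine PPBP was at least 5.77-fold higher and SPRR1B, a precursor of the cornified envelope of squamous epithelium, at least 3.51-fold. The long non-coding RNAs LINC01355 and CCDC18-AS1 were at least 7.58-fold and 7.4-fold higher. These 5 genes were called on the signals as deposited, but their control signals lie under background and they passed the filter through the other arrays. Their p-values are therefore not given, and only the bounds describe the size of the rises. For none of these 5 did the ADMA arrays pass the test against serum-starved cells. The background level is the 95th percentile of the Bacillus control probe sets of an array, 35 to 70.2 in signal units on the control arrays.

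**Figure D2:**
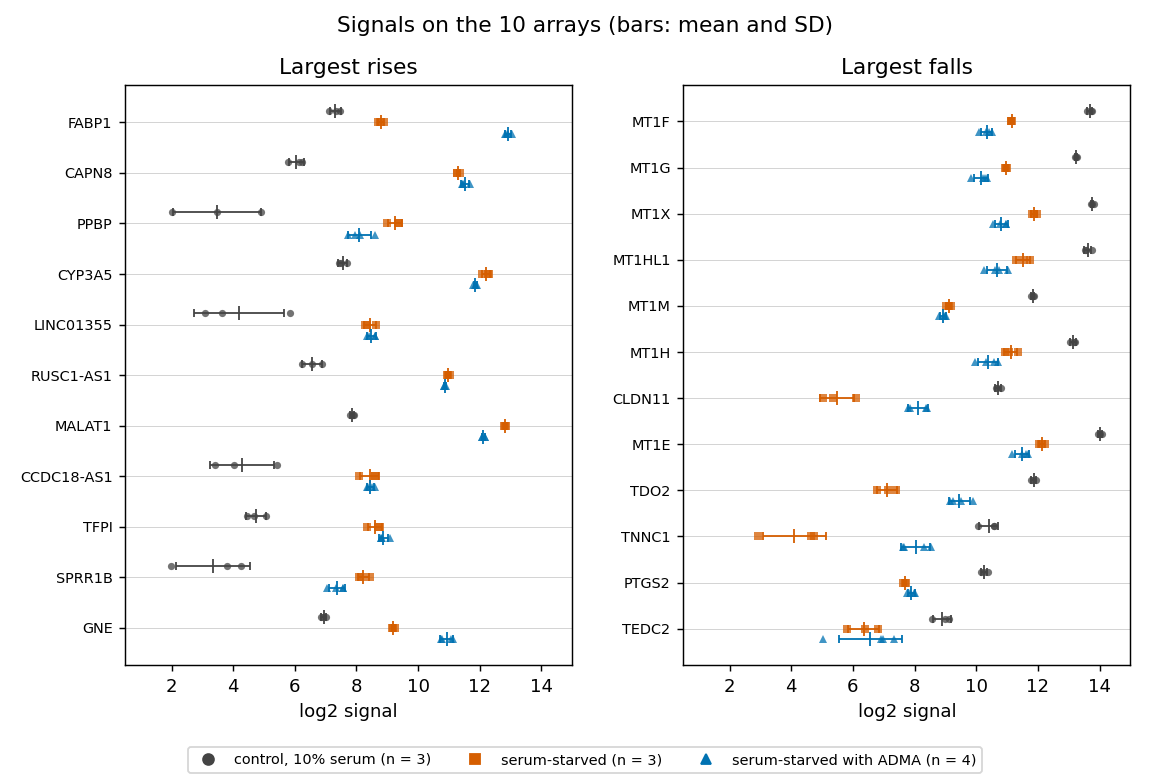
Log2 signals (horizontal) on the 10 arrays for the genes with the largest rises (left) and falls (right) in ADMA-treated against control cells, with 1 point per array and bars for the mean and SD of a group. FABP1 and GNE lie above the serum-starved arrays and the other rises mostly beside or below them, while CLDN11, TDO2 and TNNC1 lie between serum-starved and control arrays.

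Among the falls, metallothioneins took 7 of the first 12 places. Metallothioneins are small cysteine-rich proteins that bind zinc and copper, and their genes are switched on by zinc through the metal-responsive factor MTF1. MT1F had 13.71, 13.76 and 13.60 on the control arrays, 11.17, 11.13 and 11.14 on the serum-starved arrays and 10.42, 10.50, 10.33 and 10.09 on the ADMA arrays. The ADMA arrays were the lowest of all 10, 3.35 lower than control cells (standard error 0.08, adjusted p = 9.09e-13). MT2A, a widely expressed member, had 14.01, 13.97 and 13.92 in control cells and 12.04, 12.21, 11.99 and 11.40 with ADMA and fell by 2.06 (standard error 0.14). MT1G fell by 3.07 (standard error 0.10), MT1X fell by 2.95 (standard error 0.09), MT1M fell by 2.89 (standard error 0.08), MT1H fell by 2.74 (standard error 0.14) and MT1E fell by 2.51 (standard error 0.10), as did MT1HL1, a metallothionein-like gene, at -2.95 (standard error 0.14). All 8 metallothionein 1 and 2 genes tested were lower than in control cells, against 23.2% of all genes. Compared with serum-starved cells 7 of the 8 were lower, MT1X by 1.06, and MT1M, at -0.17, did not pass. On all 8 genes the 4 ADMA arrays lay below the 6 other arrays, which was so for 500 genes, 4.05% of those tested. The paralogs are nearly identical and 7 of the 8 probe sets end in _x_at or _s_at, so that they may share signal and do not count as 8 separate measurements. The mean of all probe sets of MT1G gave -0.60, a value that did not pass. MT3, the brain-type member, differed by -0.82 (95% interval -1.40 to -0.24) and MTF1 by 0.30 (95% interval 0.03 to 0.56), and neither passed.

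The promoters of MT1X and MT2A are shown because these genes carry the largest group of falls and lie in the same cluster on chromosome 16. Each sequence covers 250 bases before and 50 after the start of the gene in RefSeq, on build GRCh38.p14, at chr16:56682220-56682519 on the plus strand for MT1X and at chr16:56608334-56608633 on the plus strand for MT2A. Capitals mark matches on either strand to the metal response core, TGCACNC or TGCGCNC.
MT1X: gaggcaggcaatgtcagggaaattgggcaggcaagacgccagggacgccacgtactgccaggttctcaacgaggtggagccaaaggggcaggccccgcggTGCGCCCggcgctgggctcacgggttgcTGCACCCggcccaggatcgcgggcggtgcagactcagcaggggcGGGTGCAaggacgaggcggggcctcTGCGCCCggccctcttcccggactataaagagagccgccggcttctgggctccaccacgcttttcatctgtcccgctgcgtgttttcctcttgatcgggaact
MT2A: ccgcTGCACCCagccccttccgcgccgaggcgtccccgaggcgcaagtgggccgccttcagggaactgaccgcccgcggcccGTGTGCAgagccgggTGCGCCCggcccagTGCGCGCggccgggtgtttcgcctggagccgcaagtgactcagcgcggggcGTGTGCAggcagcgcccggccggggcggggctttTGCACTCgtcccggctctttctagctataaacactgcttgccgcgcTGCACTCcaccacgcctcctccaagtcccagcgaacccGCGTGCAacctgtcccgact
The letters occurred 4 times in the MT1X promoter and 8 times in that of MT2A, overlapping matches included, and also 8 times in that of MT1H, the third metallothionein promoter found in the table. At least 1 match was present in 38.9% of the 10068 promoters found for tested genes and in 29.3% of all 27305 promoters. The match is a description of the sequence.

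Of the 14 carriers of zinc tested 4 rose, a share near the 26.6% of all genes, 1 fell, beside 23.2% of all genes, and 9 did not pass. They stand in 1 group with the metallothioneins, where 8 of 23 genes fell, 7 of them metallothioneins, and 4 rose, or 1 and 16 with arrays centred on their medians. The exporter SLC30A1, itself a target of MTF1, had 11.41, 11.45 and 11.25 in control cells and 12.16, 12.09, 12.19 and 11.87 with ADMA and rose by 0.71 (standard error 0.08), while serum-starved cells had 12.83, 12.76 and 12.90. The ADMA arrays lay between the other groups. The vesicle transporters SLC30A7 and SLC30A4 rose by 0.80 (standard error 0.08) and 0.70 (standard error 0.12). The importer SLC39A10 had 10.08, 10.15 and 10.14 in control cells, 10.53, 10.49 and 10.40 in serum-starved cells and 11.19, 11.27, 11.23 and 11.49 with ADMA. SLC39A10 was thus highest with ADMA, 1.17 above control cells (standard error 0.08). SLC39A8, an importer of zinc and manganese, fell by 0.75 (standard error 0.08), a call lost with the mean of its probe sets, at -0.45. That of SLC30A1 was lost in the same way, at 0.56. With arrays centred on their medians SLC30A1, SLC30A4 and SLC30A7 no longer passed, at 0.20, 0.20 and 0.29.

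The other large falls were of different kinds. CLDN11, a tight junction claudin, had 10.64, 10.68 and 10.82 in control cells and 7.79, 7.86, 8.38 and 8.42 with ADMA, and fell by 2.60 (standard error 0.23). TDO2, which opens the ring of tryptophan, went from 11.94, 11.85 and 11.79 to 9.25, 9.16, 9.50 and 9.91 and fell by 2.41 (standard error 0.17). TNNC1, a troponin that binds calcium, fell by 2.37 (standard error 0.38). For these 3 genes the serum-starved arrays were lower still, so that the ADMA arrays lay between the groups, 2.62 above serum-starved cells for CLDN11, 2.34 for TDO2 and 3.93 for TNNC1. On 2 of the 3 serum-starved arrays CLDN11 was under background, so the size of its difference from them is uncertain. PTGS2, the inducible cyclooxygenase that makes prostaglandins, had 10.15, 10.24 and 10.37 in control cells, 7.73, 7.68 and 7.63 in serum-starved cells and 7.86, 7.97, 7.76 and 8.02 with ADMA. Its fall of 2.35 (standard error 0.11) left the ADMA arrays 0.22 above the serum-starved arrays, a difference that did not pass. TEDC2, a component of a tubulin complex of centrioles, had a difference of -2.32 (standard error 0.43), and 1 of its 4 ADMA arrays was under background.

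Genes of the cell cycle were mostly lower than in growing cells and, in part, higher than in serum-starved cells. Of 57 mitosis genes 51 fell and 0 rose, with a median difference of -0.89 against 0.07 over all genes. CCNB1, cyclin B1 of the kinase that starts mitosis, had 13.43, 13.41 and 13.41 in control cells, 10.40, 10.48 and 10.51 in serum-starved cells and 11.68, 11.57, 11.68 and 11.67 with ADMA. The 3 groups did not overlap, and CCNB1 was 1.77 lower than in control cells (standard error 0.05, adjusted p = 3.53e-12) and 1.19 higher than in serum-starved cells. CDC20, the activator of the anaphase-promoting complex, fell by 1.69 (standard error 0.09). SPC25, of the kinetochore complex that binds microtubules, fell by 1.72 (standard error 0.09). Set against serum-starved cells, 55 of the 57 genes were higher with ADMA and 0 lower, and serum-starved cells themselves had all 57 lower than control cells, with a median of -1.85. Of 50 DNA replication genes 46 fell and 0 rose, with a median of -1.12. GINS2, a subunit of the replicative helicase, had 11.69, 11.80 and 11.74 in control cells and 9.90, 9.90, 10.03 and 10.13 with ADMA and fell by 1.75 (standard error 0.08). GINS3 of the same complex fell by 1.74 (standard error 0.13) and ORC1, which marks replication origins, fell by 1.70 (standard error 0.13). For replication 32 of 50 genes were higher than in serum-starved cells, whose median against control cells was -1.57. The median of replication genes was thus below that of mitosis genes in ADMA-treated cells, while in serum-starved cells the order was the reverse. The difference between these medians was not tested.

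Regulators of the G1/S step, at which cells commit to replication, were mostly lower. Of 27 genes 18 fell and 2 rose, with a median of -0.53. CDKN2B, an inhibitor of the G1 kinases CDK4 and CDK6, had 7.56, 7.28 and 7.46 in control cells and 11.18, 11.20, 10.98 and 10.85 with ADMA. It rose by 3.62 (standard error 0.10), a fold of 12.3, and lay 0.65 below serum-starved cells. MYBL2, which activates mitotic genes, fell by 2.10 (standard error 0.16), and E2F8, a repressor of the E2F family, fell by 1.89 (standard error 0.15).

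Promoters of 3 of these genes are printed because the letters of 2 known cell cycle elements occurred in unequal shares of the mitosis and the replication promoters. They are on the same build and cover the same window, at chr1:43358731-43359030 on the plus strand for CDC20, at chr2:168890381-168890680 on the minus strand for SPC25 and at chr16:85688905-85689204 on the minus strand for GINS2. Capitals mark TTTGAA, the cell cycle genes homology region, in the promoters of CDC20 and SPC25, and an E2F element, TTTCGCGC, TTTGGCGC or TTTCCCGC, in that of GINS2, each on either strand.
CDC20: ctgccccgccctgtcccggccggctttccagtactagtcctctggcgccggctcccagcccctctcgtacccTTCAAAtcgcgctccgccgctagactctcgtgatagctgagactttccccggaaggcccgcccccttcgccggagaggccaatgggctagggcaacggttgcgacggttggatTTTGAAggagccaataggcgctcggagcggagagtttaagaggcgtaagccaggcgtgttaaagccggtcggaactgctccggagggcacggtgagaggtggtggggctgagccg
SPC25: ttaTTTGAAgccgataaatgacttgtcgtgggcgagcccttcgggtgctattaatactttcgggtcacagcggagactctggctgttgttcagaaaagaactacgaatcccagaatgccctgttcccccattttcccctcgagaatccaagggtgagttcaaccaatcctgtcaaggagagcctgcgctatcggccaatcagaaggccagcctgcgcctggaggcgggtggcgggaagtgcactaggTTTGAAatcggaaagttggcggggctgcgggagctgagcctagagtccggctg
GINS2: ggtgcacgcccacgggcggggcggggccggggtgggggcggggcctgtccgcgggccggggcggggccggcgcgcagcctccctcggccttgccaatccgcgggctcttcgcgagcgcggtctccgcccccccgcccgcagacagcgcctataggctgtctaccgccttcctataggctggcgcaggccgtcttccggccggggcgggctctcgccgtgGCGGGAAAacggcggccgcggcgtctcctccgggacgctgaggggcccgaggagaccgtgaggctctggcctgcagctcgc
TTTGAA occurred in 35 of the 48 mitosis promoters found in the table (72.9%), in 1 of the 44 replication promoters (2.27%) and in 9.98% of the promoters of tested genes. The E2F letters occurred in 18 of the 44 replication promoters (40.9%), in 3 of the 48 mitosis promoters (6.25%) and in 4.57% of those of tested genes. Over all 27305 promoters the shares were 15.4% for TTTGAA and 2.79% for the E2F letters. The promoters of CCNB1 and ORC1 held no match to the element of their group in this window.

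Genes of growth and of protein and energy production were mostly lower as well, with the exception of the ribosome itself, and the median of translation initiation factors lay closer to that of all genes. Nucleotide synthesis had 20 of 25 genes lower and 1 higher, led by RRM1, the large subunit of ribonucleotide reductase, which fell by 1.36 (standard error 0.07), and PRPS2, which makes the sugar phosphate of nucleotides and fell by 1.30 (standard error 0.06). DTYMK, the thymidylate kinase, fell by 1.25 (standard error 0.13), but probe sets of DTYMK were called in opposite directions and their mean was 0.32. In ribosome biogenesis 31 of 38 genes fell and 0 rose, with a median of -0.60. GRWD1, a histone-binding protein of the nucleolus, fell by 1.48 (standard error 0.12) and RRP9, of the processome that trims pre-ribosomal RNA, fell by 1.43 (standard error 0.09). Mitochondrial ribosomal proteins had 42 of 48 lower and 0 higher, with MRPL12 at -1.42 (standard error 0.12) and MRPL4 at -1.29 (standard error 0.10). The spliceosome had 31 of 47 lower and 4 higher, with SNRNP40, of the U5 particle, at -1.41 (standard error 0.08). Of the translation initiation factors 10 of 31 fell and 2 rose, beside 23.2% and 26.6% of all genes, with a median of -0.15. Centred, the counts were 0 and 29. The largest fall was in EIF2B3, of the exchange factor of eIF2, by 0.97 (standard error 0.10). The proteasome had 20 of 29 lower and 0 higher, with PSMD3 at -1.04 (standard error 0.09). Chaperones of the cytosol and mitochondria had 18 of 25 lower and 0 higher, with STIP1, which links HSP70 to HSP90, at -1.09 (standard error 0.09). In each of these 7 groups the median in serum-starved cells was further below 0 than in ADMA-treated cells, as the plot of group medians shows.

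Cytosolic ribosomal proteins were the exception. Of 35 tested 25 were higher than in control cells and 0 lower, with a median of 0.38, and serum-starved cells had 0 higher and 0 lower. RPS19, of the small subunit, had 14.86, 14.79 and 14.82 on the control arrays and 15.28, 15.28, 15.27 and 15.51 on the ADMA arrays and rose by 0.51 (standard error 0.08). The arrays did not overlap, but the direction rests on the scaling, and RPS19 did not pass with quantile normalization or centring, at 0.094 and 0.004. With quantile normalization the median of the group was -0.01, with 0 higher and 1 lower, with arrays centred on their medians it was -0.125, with 0 higher and 7 lower, and with arrays scaled to the hybridization controls it was 0.15, with 1 higher and 0 lower. These genes are among the brightest of the array.

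In mitochondria 17 of 23 TCA cycle genes fell and 0 rose. DLAT, of the pyruvate dehydrogenase complex, fell by 0.94 (standard error 0.07), IDH3A, of isocitrate dehydrogenase, fell by 0.85 (standard error 0.06) and MDH1, a malate dehydrogenase, fell by 0.69 (standard error 0.06). The respiratory chain had 27 of 39 genes lower and 1 higher. NDUFS6, of complex I, had 13.80, 13.66 and 13.57 in control cells and 12.50, 12.42, 12.53 and 12.59 with ADMA and fell by 1.17 (standard error 0.06). The 2 groups were clear of each other. NDUFS7, also of complex I, fell by 1.14 (standard error 0.08), a call lost at -0.478 without probe sets ending in _x_at or _s_at, and CYC1, cytochrome c1 of complex III, fell by 1.12 (standard error 0.06). Glycolysis went both ways, with 4 of 22 genes higher and 11 lower, or 1 and 17 centred. PFKFB2, which makes the activator of phosphofructokinase, rose by 1.45 (standard error 0.11), while HK2, the hexokinase that traps glucose, fell by 1.28 (standard error 0.13) and GPI, the next enzyme of the pathway, fell by 1.01 (standard error 0.07). Of the genes for glutathione and NRF2 5 of 32 rose and 16 fell, or 2 and 26 centred. The cystine importer SLC7A11 had 10.03, 9.99 and 10.03 in control cells and 11.91, 12.04, 12.02 and 11.90 with ADMA and rose by 1.95 (standard error 0.06), while the glutathione transferase GSTM4 fell by 1.60 (standard error 0.14) and the peroxidase GPX1 fell by 1.42 (standard error 0.06).

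**Figure D3:**
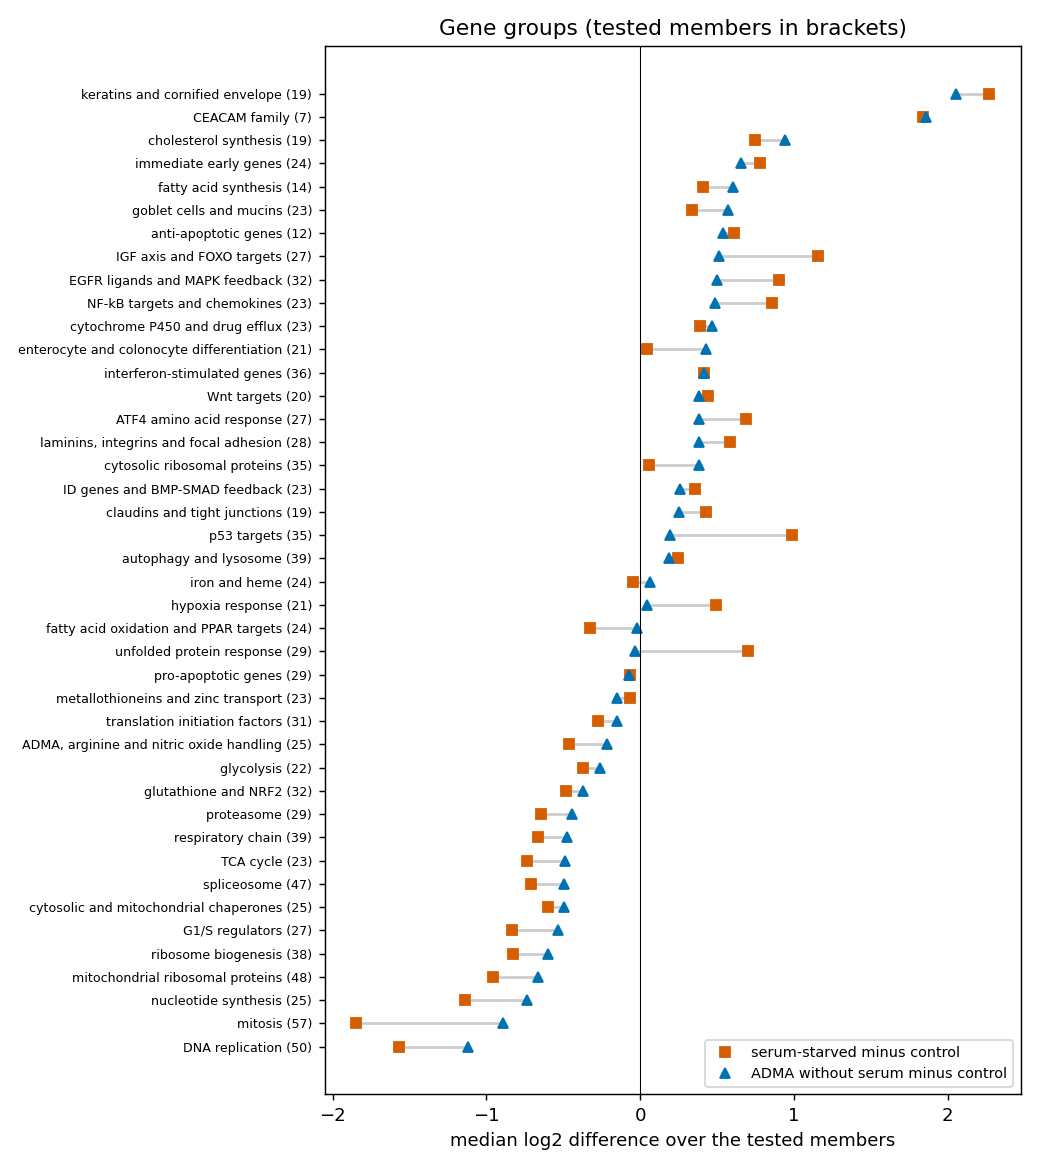
Median log2 difference from control cells (horizontal) over the tested members of 42 gene groups (vertical, number of members in brackets), as triangles for ADMA-treated cells and squares for serum-starved cells, which share the control arrays. DNA replication and mitosis lie lowest, at -1.12 and -0.89 with ADMA, and keratins and cornified envelope highest, at 2.06. Centring the arrays moves all triangles to the left by 0.51.

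The enzymes that make cholesterol were higher almost throughout. These genes are switched on by SREBP2 when a cell lacks sterols. Of 19 genes 18 rose and 1 fell, against 26.6% and 23.2% of all genes, with a median of 0.94 and of 0.75 in serum-starved cells. MVD, which makes isopentenyl pyrophosphate, had 8.37, 8.09 and 8.17 in control cells and 10.27, 10.28, 10.20 and 10.50 with ADMA and rose by 2.10 (standard error 0.10). The groups lay apart by more than the spread of either. SC5D, the sterol desaturase, went from 11.41, 11.42 and 11.54 to 13.07, 13.06, 13.04 and 13.04 and rose by 1.59 (standard error 0.05). LSS, which closes the sterol rings, rose by 1.47 (standard error 0.05). With arrays centred on their medians 10 of the 19 still passed as higher and 1 as lower, with a median of 0.44. In fatty acid synthesis 9 of 14 genes rose and 0 fell, or 5 and 4 with arrays centred. LPIN1, a phosphatidate phosphatase, rose by 1.69 (standard error 0.05), and SCD, which makes oleate, rose by 1.40 (standard error 0.05). FASN, the fatty acid synthase, rose by 1.21 (standard error 0.08), a call lost with the mean of its probe sets, at 0.35. Genes of fatty acid oxidation and PPAR targets had 10 of 24 higher and 7 lower, or 4 and 13 centred. FABP1 and PLIN2, a coat protein of lipid droplets, rose, the latter by 2.60 (standard error 0.45) from control arrays of which 2 of 3 were under background, while ETFB, which takes electrons from fatty acid oxidation, fell by 1.03 (standard error 0.08).

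Stress response genes were in part higher than in control cells. Targets of ATF4, which answers a lack of amino acids, had 19 of 27 higher and 3 lower, with a median of 0.39 that was -0.12 after centring, where the counts were 6 and 6. CHAC1, which degrades glutathione, rose by 1.56 (standard error 0.08), and the pseudokinase TRIB3 rose by 1.38 (standard error 0.07). DDIT3, the transcription factor CHOP, had 8.65, 8.82 and 8.71 in control cells, 11.42, 11.28 and 11.27 in serum-starved cells and 10.08, 9.79, 10.25 and 10.33 with ADMA. The 3 groups were separate, with a rise of 1.39 (standard error 0.11) over control cells and a difference of -1.21 from serum-starved cells. In the unfolded protein response of the endoplasmic reticulum 7 of 29 genes rose and 10 fell, beside 26.6% and 23.2% of all genes, with a median of -0.03. Serum-starved cells had 17 higher and 5 lower, with a median of 0.71. Centred, the counts for ADMA were 3 and 20. Directly against serum-starved cells 21 of the 29 were lower with ADMA and 0 higher, beside 13.8% and 15.7% of all genes. The sensor ERN1 rose by 1.63 (standard error 0.08) and was 1.92 lower than in serum-starved cells. Other probe sets of ERN1 differed from control cells by 0.258 and -0.22 and did not pass. ERN2, its counterpart in mucus-secreting epithelium, rose by 1.73 (standard error 0.26), with 1 of 3 control arrays under background, and differed by -0.05 on another probe set. CRELD2, a chaperone of the endoplasmic reticulum, had 12.37, 12.57 and 12.40 in control cells, 11.33, 11.18 and 11.48 in serum-starved cells and 11.17, 10.36, 10.92 and 10.91 with ADMA and fell by 1.61 (standard error 0.14). The ADMA arrays of CRELD2 were below both other groups, though the difference from serum-starved cells, -0.49, did not pass.

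Of 35 targets of p53 16 rose and 3 fell, with a median of 0.20, against 29 and 2 and a median of 0.99 in serum-starved cells. With ADMA 26 of them were lower than in serum-starved cells and 1 higher. TP53INP1, a stress protein that promotes p53 activity, had 8.58, 8.64 and 8.63 in control cells and 10.93, 10.73, 10.79 and 10.82 with ADMA and rose by 2.20 (standard error 0.08), a call lost with the mean of its probe sets, at 0.56. ZMAT3, an RNA-binding protein, rose by 1.23 (standard error 0.11) and IGFBP3, a carrier of insulin-like growth factors, rose by 1.06 (standard error 0.15). With arrays centred on their medians the p53 median was -0.31, with 7 higher and 16 lower, and with the hybridization controls it was -0.033, with 11 higher and 8 lower. In the insulin-like growth factor axis and FOXO targets 13 of 27 rose and 2 fell, or 11 and 8 centred. The binding protein IGFBP1 rose by 2.07 (standard error 0.16) and the insulin receptor substrate IRS2 rose by 2.05 (standard error 0.07). Genes of autophagy and lysosome had 18 of 39 higher and 7 lower, or 5 and 18 with arrays centred on their medians and 10 and 12 with the hybridization controls. NPC1, the cholesterol exporter of lysosomes, rose by 1.75 (standard error 0.09) and ATG2B, a lipid transfer protein of the autophagosome, rose by 1.52 (standard error 0.09). Of hypoxia response genes 8 of 21 rose and 5 fell, beside 26.6% and 23.2% of all genes, or 4 and 11 centred and 6 and 8 with the hybridization controls. VEGFA, the endothelial growth factor, was at 1.78 (standard error 0.07) and EGLN3, an oxygen-sensing hydroxylase, at -1.39 (standard error 0.18).

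Genes of cell death did not move one way. Of 29 pro-apoptotic genes 7 rose and 8 fell, shares near the 26.6% and 23.2% of all genes, and centred the counts were 2 and 17. The BH3-only protein PMAIP1 rose by 0.93 (standard error 0.05) and the kinase DAPK1 rose by 0.97 (standard error 0.06), while BNIP3, of mitophagy and cell death, had 11.60, 12.002 and 11.99 in control cells and 10.89, 11.09, 10.74 and 11.01 with ADMA and fell by 0.93 (standard error 0.11). Among 12 genes that oppose apoptosis 7 rose and 2 fell, beside 26.6% and 23.2% of all genes, or 3 and 5 centred. The largest rises were those of the decoy receptor TNFRSF10D at 1.17 (standard error 0.08) and BCL2L2 at 1.11 (standard error 0.07). FAS, the death receptor, had 11.31, 11.41 and 11.62 in control cells and 11.40, 11.51, 11.51 and 11.51 with ADMA. The arrays of FAS overlapped, with a difference of 0.04 (95% interval -0.12 to 0.19), while serum-starved cells were 0.75 above control cells. After centring the difference of FAS, -0.47, passed as lower. GADD45A, a stress sensor, differed by 0.20 (95% interval 0.08 to 0.32), under the fold required. ATG5 and ATG12, which are joined to each other in autophagy, differed by 0.06 (95% interval -0.08 to 0.20) and 0.01 (95% interval -0.18 to 0.21), and the kinase MAPK8 by 0.22 (95% interval 0.06 to 0.39). Another probe set of MAPK8 passed as lower, at -0.802, and its remaining ones did not pass. After centring GADD45A, ATG5 and ATG12 passed as lower, at -0.309, -0.446 and -0.491. CFLAR, which blocks caspase-8, differed by -0.05 (95% interval -0.20 to 0.09) on its brightest probe set, which did not pass. Several of its other probe sets rose, by 0.865 to 3.81, and none passed as lower. The mean of all its probe sets, 0.999, passed as higher, while the centred value of the brightest, -0.56, passed as lower. The caspase inhibitors XIAP and BIRC2 rose by 0.53 (standard error 0.09) and 0.68 (standard error 0.06), BCL2L1 by 0.56 (standard error 0.08) and MCL1 by 0.59 (standard error 0.06), and none of these 4 passed after centring. Another probe set of MCL1 rose, at 0.706, and those at 0.225, 0.187, 0.107 and 0.051 did not pass. The autophagy receptor SQSTM1 rose by 0.59 (standard error 0.06), the cathepsin CTSS rose by 0.95 (standard error 0.15) and the amyloid precursor APP rose by 0.67 (standard error 0.13). These 3 calls were lost after centring, at 0.085, 0.442 and 0.163, and that of APP also without probe sets ending in _x_at or _s_at, at 0.217. Cathepsin CTSB fell by 0.43 (standard error 0.10), a call lost without control array 2, and the repair enzyme PARP2 fell by 0.41 (standard error 0.07). The TNF receptor TNFRSF1A rose by 0.62 (standard error 0.11) and the small GTPase RAB25 rose by 0.44 (standard error 0.05), both to above serum-starved cells as well, and neither passed after centring, at 0.109 for TNFRSF1A and -0.062 for RAB25. The initiator caspase CASP9 rose by 0.38 (standard error 0.10) and the deubiquitinase CYLD rose by 0.73 (standard error 0.20), and both calls were lost without any 1 of 5 single arrays, at 0.318 to 0.394 for CASP9 and 0.573 to 0.725 for CYLD, and after centring, at -0.13 and 0.22. HSPBAP1, a partner of a small heat shock protein, rose by 1.39 (standard error 0.13) and the glycosyltransferase GALNT5 rose by 0.53 (standard error 0.10), the latter a call lost after centring, at 0.023. The BH3-only protein BMF differed by 0.53 (95% interval -0.04 to 1.11) and 1 of its control arrays was under background.

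**Figure D4:**
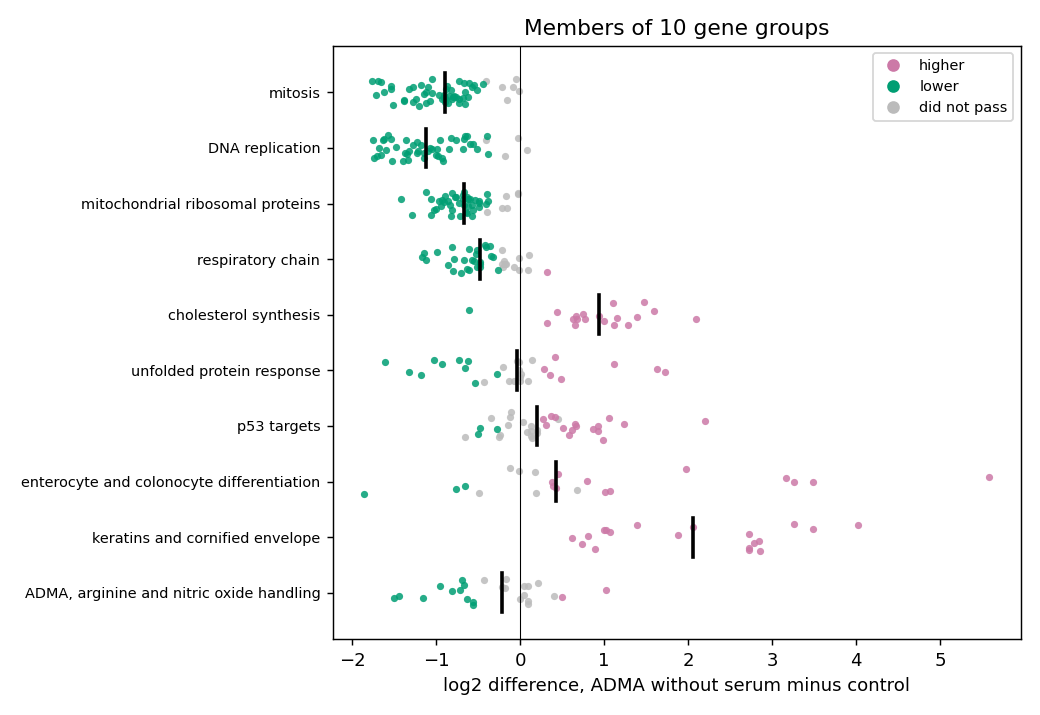
Log2 difference of ADMA-treated minus control cells (horizontal) for each tested member of 10 gene groups (vertical), with 1 point per gene in pink where it rose, green where it fell and grey otherwise, and a black line at the median of the group. Mitosis and DNA replication hold no pink points, keratins and cornified envelope hold no others, and p53 targets and the unfolded protein response spread to both sides of 0.

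Keratins and CEACAM genes, both of epithelial surfaces, had the highest medians among the groups drawn. All 19 tested genes of keratins and cornified envelope rose, with a median of 2.06, or of 1.55 after centring, where 15 passed. A member that passed the filter from background signal had to be bright in at least 1 group, so this count holds for the tested members of 30 on the array. KRT20, a keratin of differentiated intestinal cells, had 8.02, 8.24 and 8.17 in control cells, 9.12, 9.30 and 8.99 in serum-starved cells and 11.52, 11.58, 11.86 and 11.57 with ADMA. The ADMA arrays were above both groups, with a rise of 3.49 (standard error 0.10) over control cells (adjusted p = 2.59e-12) and a difference of 2.50 from serum-starved cells. KRT16, a keratin of stressed squamous epithelium, rose by 3.26 (standard error 0.39), with 2 of 3 control arrays under background. Enterocyte and colonocyte genes had 12 of 21 tested genes higher and 3 lower, and against serum-starved cells 15 were higher and 0 lower. Their median of 0.43 was -0.07 with arrays centred on their medians, with 8 higher and 7 lower. Goblet cell and mucin genes rose in 16 of 23 cases and fell in 1, or 5 and 3 centred. Of the enterocyte and goblet cell groups 38 and 31 genes are on the array. As for keratins, a dim member could pass the filter through the arrays where it was bright. These counts therefore hold for the tested members only and may favour rises. MUC2, the main mucin of the colon, had 8.31, 8.25 and 7.65 in control cells and 10.02, 10.19, 10.24 and 10.02 with ADMA and rose by 2.05 (standard error 0.14). ST6GALNAC1, a sialyltransferase of mucin glycans, had 7.34, 7.09 and 6.74 in control cells, 5.55, 5.77 and 5.71 in serum-starved cells and 8.66, 8.62, 8.93 and 8.61 with ADMA. It was lowest without and highest with ADMA, 1.65 above control cells (standard error 0.19). FCGBP, a mucus protein, rose by 1.75 (standard error 0.24), with 1 of 3 control arrays under background.

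CEACAM genes encode adhesion molecules of the carcinoembryonic antigen family. Of 7 tested 5 rose and 0 fell. CEACAM1 had 7.56, 7.56 and 7.83 in control cells, 11.26, 11.11 and 11.26 in serum-starved cells and 11.29, 11.48, 11.33 and 11.13 with ADMA, and rose by 3.66 (standard error 0.09). Serum-starved and ADMA arrays of CEACAM1 lay close together, with a difference of 0.10. CEACAM7, of the colonic surface, had 7.12, 7.22 and 7.20 in control cells and 10.53, 10.55, 10.20 and 10.50 with ADMA and rose by 3.26 (standard error 0.10), and it was 0.78 above serum-starved cells. CEACAM5, the tumour marker CEA, rose by 2.50 (standard error 0.08), CEACAM6 rose by 1.86 (standard error 0.07) and CEACAM19 rose by 0.79 (standard error 0.16). The call of CEACAM19 was lost with quantile normalization, at 0.459, and with centring, at 0.283. CEACAM3 differed by 0.04 (95% interval -0.49 to 0.56) and PSG1, a pregnancy glycoprotein of the same family, by 0.25 (95% interval -0.34 to 0.84). Of laminins, integrins and focal adhesion genes 16 of 28 rose and 2 fell, with a median of 0.38 that was -0.12 after centring, where the counts were 6 and 5. ITGB4, the integrin chain of hemidesmosomes, rose by 2.51 (standard error 0.12), ITGA2, of a collagen receptor, rose by 2.25 (standard error 0.07) and LAMB3, a laminin chain, rose by 1.87 (standard error 0.08). Claudins and tight junction genes had 9 of 19 higher and 4 lower, or 4 and 8 centred and 5 and 6 with the hybridization controls. Beside the fall of CLDN11, CLDN15 rose by 1.80 (standard error 0.07) and CLDN2 rose by 1.25 (standard error 0.16), both claudins that form cation pores.

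Among signalling genes, ligands of EGFR and feedback genes of MAPK signalling rose in 22 of 32 cases and fell in 3. The ephrin receptors EPHA4 and EPHA2 rose by 2.38 (standard error 0.12) and 1.67 (standard error 0.07), and PHLDA1 rose by 1.77 (standard error 0.06). Of 24 immediate early genes 15 rose and 0 fell, with JUN at 1.53 (standard error 0.12), FOS at 1.05 (standard error 0.14) and ZFP36, which destabilizes mRNA, at 1.57 (standard error 0.13). NF-kB targets and chemokines had 11 of 23 tested genes higher and 3 lower, with 34 on the array and the limit of the filter given for keratins. IL1B, the cytokine interleukin-1β, had 7.82, 7.89 and 8.18 in control cells, 9.39, 9.25 and 9.14 in serum-starved cells and 9.96, 10.03, 10.07 and 10.16 with ADMA. IL1B was thus highest with ADMA, 2.09 (standard error 0.11) above control cells and 0.80 above serum-starved cells. Of interferon-stimulated genes 19 of 36 rose and 5 fell, with IRF9, which carries the interferon signal to the nucleus, at 2.06 (standard error 0.09) and OAS1, a sensor of viral RNA, at 1.45 (standard error 0.09). Wnt targets had 8 of 20 higher and 3 lower. RNF43, which removes Wnt receptors, rose by 1.53 (standard error 0.09), the stem cell receptor LGR5 rose by 1.09 (standard error 0.07) and the transcription factor LEF1 fell by 1.24 (standard error 0.10). With arrays centred on their medians the medians of EGFR and MAPK genes, interferon-stimulated genes, NF-kB targets and Wnt targets were -0.004, -0.09, -0.02 and -0.12, and the counts were 11 and 7, 9 and 16, 7 and 6, and 4 and 7. Those of immediate early genes were 6 and 4.

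ID proteins block basic helix-loop-helix factors and are direct targets of BMP-SMAD signalling. ID1 had 12.27, 12.23 and 12.15 in control cells, 10.98, 11.01 and 11.16 in serum-starved cells and 13.46, 13.45, 13.39 and 13.56 with ADMA. The ADMA arrays were the highest, with a rise of 1.25 (standard error 0.06) over control cells (adjusted p = 4.56e-10), whereas serum-starved cells were 1.17 below control cells. ID2 had 14.02, 14.01 and 13.91 in control cells, 11.72, 11.85 and 11.83 in serum-starved cells and 13.78, 13.72, 13.54 and 13.67 with ADMA, and fell by 0.30 (standard error 0.06), a call lost at -0.26 without ADMA array 3. ID3 had 12.24, 12.12 and 12.01, 7.71, 7.99 and 7.50 and 10.77, 10.55, 10.94 and 10.98 in the same order of groups. The ADMA arrays of both genes lay between the other groups, with ID3 1.32 below control cells (standard error 0.12) and 3.08 above serum-starved cells. ID4 differed by 0.03 (95% interval -0.42 to 0.48). Of all 23 tested genes of the group 10 rose and 4 fell, or 7 and 8 with arrays centred on their medians. Among ligands BMP7 rose by 1.59 (standard error 0.11), BMP4 rose by 1.18 (standard error 0.10) and BMP2 rose by 0.52 (standard error 0.09). Among inhibitors the activin antagonist FST rose by 1.86 (standard error 0.12), the decoy receptor BAMBI rose by 1.41 (standard error 0.06), SMAD7 rose by 0.64 (standard error 0.10) and the ubiquitin ligases SMURF1 and SMURF2 rose by 1.01 (standard error 0.09) and 0.52 (standard error 0.07). BMP2, SMAD7 and SMURF2 no longer passed after centring. The receptor BMPR2 rose by 1.13 (standard error 0.07), a call lost with the mean of its probe sets, at 0.48. The signal carrier SMAD9 fell by 1.15 (standard error 0.20), and SMAD1 fell by 0.40 (standard error 0.11), a call lost without any 1 of 5 single arrays at -0.381 to -0.284, with arrays that overlapped and a mean of all probe sets of 0.68. SMAD5, SMAD6 and the receptors ACVR1, ACVR2A, ACVR2B and BMPR1B had differences of -0.07, -0.19, 0.08, 0.40, 0.26 and 0.06 on their brightest probe sets, and none passed. Another probe set of ACVR2A rose, at 0.609, as did the mean of its probe sets, at 0.502, and another of BMPR1B rose, at 0.442. After centring SMAD5, SMAD6, ACVR1 and BMPR1B passed as lower, at -0.572, -0.698, -0.423 and -0.448. With the hybridization controls SMAD5 and SMAD6 passed as lower too, at -0.296 and -0.422. The BMP antagonist GREM1 differed by 0.08 (95% interval -0.38 to 0.53) and the hormone HAMP by 0.17 (95% interval -0.36 to 0.69).

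**Figure D5:**
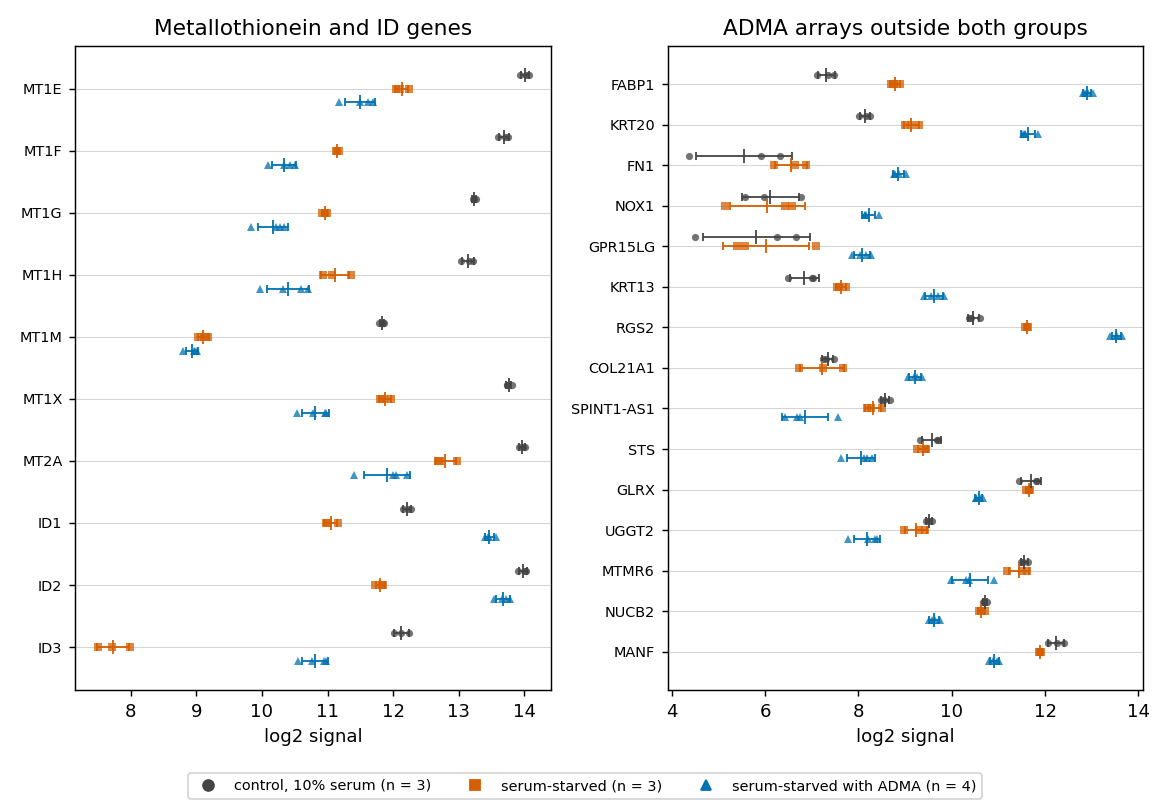
Log2 signals (horizontal) on the 10 arrays for metallothionein and ID genes (left) and for genes whose 4 ADMA arrays lie outside both other groups by the widest gap (right), with 1 point per array and bars for the mean and SD of a group. Metallothioneins lie highest on control and lowest on ADMA arrays, ID1 is highest with ADMA, and on the right FABP1 to COL21A1 lie above and SPINT1-AS1 to MANF below all other arrays.

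The genes that make, carry or are acted on by ADMA and arginine were mostly lower or did not pass. Of 25 tested 2 rose and 11 fell, or 0 and 22 centred. DDAH2, a hydrolase of ADMA, had 7.03, 7.57 and 7.20 in control cells and 8.32, 8.46, 8.36 and 8.03 with ADMA and rose by 1.03 (standard error 0.16), a call lost with arrays centred on their medians, at 0.52. Serum-starved cells had 8.40, 8.50 and 8.26, and the difference from them of -0.09 did not pass. DDAH1, the other hydrolase, had 12.81, 12.87 and 12.98 in control cells and 12.98, 13.10, 13.10 and 13.22 with ADMA, and its difference of 0.21 (95% interval 0.08 to 0.34) was under the fold required, while the centred value, -0.296, passed as lower and that with quantile normalization, 0.293, as higher. The cationic amino acid transporter SLC7A1, which also carries ADMA, rose by 0.50 (standard error 0.06), with a mean of all probe sets of -0.08 and a value of -0.003 after centring. The transporters SLC7A2, SLC7A6 and SLC7A7 had differences of -0.43, 0.09 and -0.22 and did not pass. Of the methyltransferases, PRMT1, the main source of asymmetric dimethylation, had 13.37, 13.45 and 13.43 in control cells, 11.89, 12.01 and 12.29 in serum-starved cells and 12.87, 12.70, 12.81 and 13.05 with ADMA. It fell by 0.56 (standard error 0.09) and stood 0.80 above serum-starved cells, but the mean of its probe sets, -0.10, did not pass. PRMT7 fell by 1.45 (standard error 0.16), PRMT6 fell by 1.15 (standard error 0.10), PRMT5 fell by 0.81 (standard error 0.07) and PRMT3 fell by 0.63 (standard error 0.07). The study describes PRMT5 and PRMT7 as sources of symmetric dimethylarginine, in contrast to those that form ADMA. CARM1, PRMT2 and PRMT9 differed by -0.17, -0.18 and 0.09 and did not pass. For PRMT2 this is the brightest of 5 probe sets, and 3 others rose, at 0.91, 0.73 and 0.739, as did the mean of all, at 0.84. The endothelial nitric oxide synthase NOS3 fell by 0.69 (standard error 0.15), its interacting protein NOSIP fell by 0.96 (standard error 0.09) and the neuronal synthase NOS1, near background, differed by 0.41 (95% interval -0.17 to 0.98). Arginine enzymes were lower: AGMAT, which splits agmatine, fell by 1.504 (standard error 0.07), ASS1, which makes argininosuccinate, fell by 0.72 (standard error 0.06), ODC1, which starts polyamine synthesis, fell by 0.67 (standard error 0.05) and the arginase ARG2 fell by 0.56 (standard error 0.08). ARG2 had 10.69, 10.81 and 10.66 in control cells, 10.93, 10.80 and 10.88 in serum-starved cells and 9.995, 10.14, 10.21 and 10.27 with ADMA. Its ADMA arrays were below both groups, and the difference from serum-starved cells was -0.72. For AGMAT another probe set gave 0.48. ASL, GCH1, AZIN1 and OAZ1 differed by 0.04, 0.001, 0.05 and 0.09 and did not pass. After centring, each gene named here as not passing was lower and passed, except NOS1.

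Genes for cytochrome P450 enzymes and drug efflux had 10 of 23 higher and 5 lower, or 5 and 7 centred. Next to CYP3A5, the export pump ABCC3 rose by 2.91 (standard error 0.12) and the fatty acid hydroxylase CYP4F12 rose by 2.84 (standard error 0.29), with 2 of 3 control arrays of the latter under background. Iron and heme genes had 5 of 24 higher and 5 lower, beside 26.6% and 23.2% of all genes, or 3 and 14 centred and 4 and 10 with the hybridization controls. The iron reductase CYBRD1 rose by 1.38 (standard error 0.11), the iron exporter SLC40A1 rose by 1.01 (standard error 0.08) and HEPH, the oxidase that works with it in the intestine, rose by 0.95 (standard error 0.05). HEPH had 11.43, 11.53 and 11.54 in control cells, 11.56, 11.53 and 11.59 in serum-starved cells and 12.50, 12.42, 12.46 and 12.41 with ADMA, and was the 1 of these 3 that passed against serum-starved cells, at 0.89. The call of SLC40A1 was lost with the mean of its probe sets, at 0.69.

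On 828 genes, 6.71% of those tested, the 4 ADMA arrays lay above the 6 arrays of both other groups, and 366 of them were called against both. The widest gaps belonged to FABP1 and KRT20. FN1, the matrix protein fibronectin, had 4.37, 6.33 and 5.91 in control cells, 6.63, 6.19 and 6.87 in serum-starved cells and 9.01, 8.87, 8.77 and 8.76 with ADMA. It rose by 3.32 (standard error 0.36) over control cells, or by 2.73 when dim signals were set to the background level. NOX1, the NADPH oxidase of the colon, had 5.57, 5.97 and 6.77, 5.13, 6.58 and 6.43 and 8.43, 8.17, 8.14 and 8.13 in the same order. NOX1 rose by 2.11 (standard error 0.35), or 1.93 with dim signals so taken, and its control and serum-starved arrays overlapped. GPR15LG, a chemokine-like ligand made by colon epithelium, rose by 2.27 (standard error 0.47), or by 1.73 with dim signals so taken. RGS2, which dampens G protein signals, had 10.38, 10.60 and 10.42 in control cells, 11.64, 11.58 and 11.61 in serum-starved cells and 13.54, 13.53, 13.40 and 13.65 with ADMA. RGS2 rose by 3.06 (standard error 0.07) and was 1.92 above serum-starved cells. KRT13, a keratin of stratified epithelium, rose by 2.78 (standard error 0.16) and COL21A1, a collagen, rose by 1.88 (standard error 0.19).

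On 500 genes the ADMA arrays lay below the 6 others, and 235 of them were called against both. STS, the steroid sulfatase, had 9.32, 9.70 and 9.68 in control cells, 9.46, 9.44 and 9.25 in serum-starved cells and 8.28, 8.12, 8.19 and 7.62 with ADMA. Control and serum-starved arrays of STS were close together and the ADMA arrays lower, with a fall of 1.51 (standard error 0.15) from control cells. GLRX, a glutaredoxin that reduces glutathione-bound proteins, had 11.44, 11.81 and 11.83, 11.69, 11.67 and 11.59 and 10.52, 10.66, 10.53 and 10.60 in the same order and fell by 1.12 (standard error 0.09). MANF, a secreted protein of the endoplasmic reticulum that rises under its stress, had 12.41, 12.25 and 12.06, 11.91, 11.88 and 11.88 and 10.79, 10.88, 10.97 and 11.004 and fell by 1.33 (standard error 0.08). MANF was below serum-starved cells by 0.98. NUCB2, the precursor of nesfatin, fell by 1.09 (standard error 0.07), the phosphatase MTMR6 fell by 1.16 (standard error 0.16) and the antisense RNA SPINT1-AS1 fell by 1.71 (standard error 0.22). UGGT2, which marks misfolded glycoproteins, fell by 1.33 (standard error 0.15), but its probe sets were called in opposite directions and their mean was 0.89.

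Few markers of other cell types passed the filter. Of 12 fibroblast markers 4 passed the filter and 1 rose, with summed signals of 1477 to 1629 in control cells and 2649 to 3036 with ADMA. Of 10 endothelial markers 2 passed and 1 rose, with sums of 505.5 to 543.8 and 884.1 to 1070. Of 7 leukocyte markers 3 passed and 1 rose, with sums of 602.9 to 913.4 and 1629 to 2294. Of 6 erythroid and serum protein markers 1 passed, HBB, which differed by -0.05 (95% interval -0.47 to 0.37), with sums of 353.9 to 420.4 and 353.8 to 482.9. The 3 that rose were VIM, the filament vimentin, at 1.76 (standard error 0.09), FLT1, a receptor of VEGF, at 2.28 (standard error 0.17) on its brightest probe set and -0.17 on another, and LYZ, lysozyme, which intestinal Paneth cells also make, at 1.62 (standard error 0.15). The part of such cells or transcripts in the groups above was not tested.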

How the data were processed

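Affymetrix HG-U133 Plus 2.0 arrays were used, 10 in all. The authors summarized the scans with MAS 5.0 and deposited a linear intensity for each probe set, with each array scaled to the same trimmed mean (500.1 without the highest and lowest 2%). The authors' filter on probe sets was not applied. Groups were taken from the sample labels. Here log2 was taken without a pseudocount. Of 54675 probe sets, 62 are control probe sets, and the platform annotation pairs 41091 with 1 gene symbol, 1801 with several and 11721 with none, and each of 19775 genes was represented by the probe set with 1 symbol and the highest mean log2 signal. Genes were tested where that mean reached the 50th percentile of non-control probe sets (a signal of 76.2), which left 12344. A single linear model of the 10 arrays was fitted in R 4.3.3 with limma 3.58.1 (functions lmFit and eBayes, trend by mean signal). P-values were adjusted by Benjamini-Hochberg over the genes tested, and calls required a fold of at least 1.2 at an adjusted p under 0.01. The steps were tested on simulated data.

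The background level of an array was the 95th percentile of its 27 Bacillus control probe sets. Where a gene was under it on every array of a group, a bound is given with that group at the background level.

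Named genes are the 12 largest rises and 12 largest falls among called genes whose groups do not overlap, the 3 called members with the largest change in each of 47 lists or the brightest where none was called, the 8 genes farthest above and the 8 farthest below both other groups, every tested member of 4 lists (ADMA handling, metallothioneins, ID genes, CEACAM), and genes the study's text names. The promoters printed were chosen after values were seen. The rise of a probe set annotated to a microRNA gene, which does not measure the mature microRNA, is left out, and some list members that the rule names are given only in the counts of their group. The lists and the comparison were chosen with earlier results of these data known. Alternatives were centring on the median, quantile normalization, other filters, dim signals at background, a pseudocount of 16, other probe set choices, limma with array weights or without the trend, the 2 groups alone, SAM over the 35 splits of the 7 arrays, other thresholds, the replicate number as a block, each array left out, and, added after seeing the data, scaling to hybridization controls. Pearson correlations between arrays of a group were 0.984 to 0.987, and the number of arrays limits the precision. Promoters are RefSeq sequences of build GRCh38.p14, 1 start per gene. Plots were made in Python 3.11.15 and matplotlib 3.10.9.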

Additional observations from a re-analysis of the deposited data

Results flagged for a closer look

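In 16 of 247 groups of 4 ADMA arrays examined, 1 array lay so far from the nearest of the other 3 that the gap took up more of the range of the 4 than Dixon's 95% critical value allows. Chance alone flags about 1 in 20 such groups, and no array is set aside for it. The ratio of gap to range is given for each. On ADMA array 1 the ratio was 0.886 for BMP7, 0.962 for FAS, 0.863 for MCL1, 0.884 for NOX1, 0.871 for ORC1, 0.915 for SMAD1 and 0.913 for TFPI. On ADMA array 2 the ratio was 0.883 for CCNB1. On ADMA array 3 the ratio was 0.905 for CAPN8, 0.856 for CEACAM7, 0.833 for KRT20, 0.976 for SMAD6 and 0.831 for ST6GALNAC1. On ADMA array 4 the ratio was 0.834 for RPS14, 0.969 for RPS19 and 0.841 for SLC39A8. CEACAM7 had a log2 signal of 10.20 on ADMA array 3 and of 10.50 to 10.55 on the other 3. KRT20 had a log2 signal of 11.86 on ADMA array 3 and of 11.52 to 11.58 on the other 3. ST6GALNAC1 had a log2 signal of 8.94 on ADMA array 3 and of 8.61 to 8.66 on the other 3. Each of these genes kept its direction without the array concerned. Their cause was not tested.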

How the results depend on the processing

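The counts of 3284 higher and 2859 lower genes depended most on the scaling of the arrays. They were 1209 and 6101 with arrays centred on their medians, 2078 and 4263 with arrays scaled to their 18 hybridization controls (chosen after seeing the data, those controls being 0.23 higher on the ADMA than on the control arrays), and 2864 and 3051 with quantile normalization. A fold of at least 2 left 1133 and 543, SAM gave 2429 and 1335, and leaving out each array in turn gave 3059 to 3272 higher and 2604 to 2876 lower genes. The remaining alternatives (other filters, a pseudocount, probe set choices, variance models, the arrays of the 2 groups alone and a looser p) moved neither count by more than 1.5 times. With the filter at the 75th percentile, however, lower genes outnumbered higher ones, 2495 against 2339 of 7975 tested. With the replicate number as a block the counts were 3163 and 2779, and the correlations of deviations between same-numbered ADMA and control arrays were 0.04, -0.06 and -0.07, so the numbers were not taken as pairs, and CASP9 at 0.358 was the 1 named gene whose call was lost. Centring turned the sign of these differences: ACVR1 at -0.423, ASL at -0.466, ATG12 at -0.491, ATG5 at -0.446, AZIN1 at -0.461, BMPR1B at -0.448, CASP9 at -0.13, DDAH1 at -0.296, FAS at -0.47, GADD45A at -0.309, GCH1 at -0.505, OAZ1 at -0.414, PRMT9 at -0.414, RAB25 at -0.062, RPS14 at -0.018, RPS16 at -0.013, SLC30A6 at -0.444, SLC39A14 at -0.427, SLC39A4 at -0.353, SLC7A1 at -0.003 and SLC7A6 at -0.416. Of these 16 passed as lower after centring although they had not passed as deposited, and CASP9, RAB25, RPS14, RPS16 and SLC7A1 lost a call. The lists of single genes with a turned sign, here and below, hold only named genes called in at least 1 of the 2 settings compared. Other differences, such as that of MTF1, turned with centring without a call in either. Medians of groups that changed sign were, with centring, cytosolic ribosomal proteins at -0.125, ATF4 amino acid response at -0.121, p53 targets at -0.309, autophagy and lysosome at -0.315, laminins, integrins and focal adhesion at -0.122, enterocyte and colonocyte differentiation at -0.074, claudins and tight junctions at -0.253, EGFR ligands and MAPK feedback at -0.004, NF-kB targets and chemokines at -0.017, interferon-stimulated genes at -0.088, ID genes and BMP-SMAD feedback at -0.247, Wnt targets at -0.12, hypoxia response at -0.461, cytochrome P450 and drug efflux at -0.04, iron and heme at -0.444, fibroblast markers at -0.318 and leukocyte markers at -0.289, with quantile normalization, cytosolic ribosomal proteins at -0.007, fatty acid oxidation and PPAR targets at 0.08, iron and heme at -0.008, fibroblast markers at -0.156 and leukocyte markers at -0.265, and with the hybridization controls, p53 targets at -0.033, autophagy and lysosome at -0.039, hypoxia response at -0.185, iron and heme at -0.168, fibroblast markers at -0.042 and leukocyte markers at -0.013. Averaging the probe sets of a gene, the sign turned for CFLAR at 0.999, DTYMK at 0.319, PRMT2 at 0.842, SLC7A1 at -0.076, SMAD1 at 0.68 and UGGT2 at 0.891. Without probe sets ending in _x_at or _s_at it turned for AGMAT at 0.476, CFLAR at 3.809, ERN2 at -0.049, FLT1 at -0.172 and PRMT2 at 0.73. Calls were lost there for BCL2L1 at 0.339, BMPR2 at 0.477, CASP9 at 0.633, FASN at 0.349, MT1G at -0.604, PRMT1 at -0.1, SLC30A1 at 0.561, SLC39A8 at -0.453, SLC40A1 at 0.687, SMURF2 at 0.303, TP53INP1 at 0.556 and TRAP1 at -0.596 in the former and for APP at 0.217, MCL1 at 0.187, NDUFS7 at -0.478 and SLC7A1 at 0.329 in the latter, whereas the turned values of CFLAR, PRMT2 and UGGT2 passed in the former and those of CFLAR and PRMT2 in the latter. Why probe sets of 1 gene differ was not tested. SAM lost the calls of ARG2, BCL2L1, BMP2, CASP9, CTSB, EIF4G1, GALNT5, ID2, NOS3, PARP2, PRMT1, PRMT3, RAB25, RPS14, RPS16, RPS19, SLC7A1, SMAD1, SMURF2, TNFRSF1A and XIAP. It gained those of MT3 at -0.819 and SLC39A2 at 0.902. SAM added a constant of 1.4 to the standard error of each gene, where limma's median standard error was 0.10. Its calls therefore followed mainly the size of a difference, and a lost call does not show a less certain one. Leaving out 1 array, a call was lost for CASP9 (0.318 without ADMA 1, 0.358 without ADMA 4, and 0.362, 0.394 and 0.372 without controls 1 to 3), CYLD (0.573, 0.725 and 0.725 without ADMA 1 to 3, 0.666 without control 1, 0.654 without control 3), SMAD1 (-0.381, -0.374 and -0.376 without ADMA 2 to 4, -0.284 without control 1, -0.378 without control 3), CTSB (-0.371 without control 2) and ID2 (-0.26 without ADMA 3), and gained for MT3 (-0.971 without ADMA 1) and SLC39A6 (-0.341 without ADMA 3). Of the 241 named genes 230 kept direction and call with quantile normalization and 221 with the hybridization controls. Signals near the background level limit small differences between dim genes.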

Other observations

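Genes differed by kind of transcript. Of 641 tested genes that the annotation gives as long non-coding RNAs 190 were higher with ADMA than in control cells (29.6%) and 23 were lower (3.59%), with a median difference of 0.37. Of 11475 tested protein-coding genes 3002 were higher (26.2%) and 2826 lower (24.6%), with a median of 0.04. At a fold of at least 4 there were 34 higher and 1 lower long non-coding RNAs. These values are on the signals as deposited. Centring the arrays shifts each difference by -0.51, which is more than either median. The kinds of transcript were not counted under another scaling or filter. A transcript dim in control cells could pass the filter on low signal through the arrays where it was bright. These counts therefore hold for the tested genes only and may favour rises. Serum-starved cells had medians of 0.29 and 0.04 for the same genes. Whether dim signals, introns or unspliced RNA have a part in this was not tested.

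Of 6161 genes with at least 2 probe sets past the filter on low signal, 297 (4.82%) had probe sets called in opposite directions between ADMA-treated and control cells. Among the genes named in the text these were DTYMK and UGGT2.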
